A study of Homo sapiens with 12 samples.

Results

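The transcription factors that set up and run the B lineage were followed in 697(EU3) cells, a human B-cell leukaemia line, by taking from the deposited normalized table every gene named PAX5, EBF1, IKZF1, IKZF3, SPIB, POU2AF1, IRF4, IRF8, BCL6 or PRDM1. All 10 of these genes were among the 26231 in that table, and all 10 were among the 11968 with enough counts to be tested. The study asks what lowering IGF2BP1, which binds RNA and is mostly a protein of the embryo and of tumours, does to the fraction of these cells with high aldehyde dehydrogenase activity, which is sorted with a fluorescent substrate (ALDEFLUOR). There were 12 libraries of that fraction in 4 groups: SH2 cells given doxycycline (sets 1 to 4, n = 4), SH2 cells left untreated (sets 1 to 4, n = 4), control cells given doxycycline (sets 2 and 4, n = 2) and control cells left untreated (sets 2 and 4, n = 2). SH2 cells carry an shRNA against IGF2BP1 that doxycycline turns on along with eGFP, and the treated ones were sorted again for eGFP. Control cells serve as the control for doxycycline itself, and whether they hold the protocol's scrambled shRNA is not given in the labels. Each set was its own sort and its own treatment.

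The B lineage is set up by a chain of transcription factors. EBF1 and PAX5 switch on the genes of B-cell identity and hold off those of other lineages, and the Ikaros family, IKZF1 and IKZF3, shapes the passage through the precursor stages. In mature B cells SPIB, IRF8, BCL6 and the octamer coactivator POU2AF1 (OCA-B) serve B-cell receptor signalling and the germinal centre, while IRF4 and PRDM1 (Blimp-1) drive the step to the plasma cell, in which BCL6 and PRDM1 repress each other.

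SPIB, IRF8 and BCL6 were lower in SH2 cells than in control cells both with and without doxycycline. POU2AF1 passed with doxycycline only, and IKZF3 passed without it only, on counts so low in SH2 cells that it could be tested through its level in control cells alone. None of the 10 passed the test for doxycycline in SH2 or in control cells, and PAX5, EBF1, IKZF1, IRF4 and PRDM1 passed in no comparison. For all results from these bulk samples, fewer cells of a type and less RNA per cell cannot be told apart.

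The promoters below are those of the 3 factors that were lower in SH2 cells in both comparisons and of IRF4, the relative of IRF8 whose level lay the other way. Each is the window from 250 bases before to 50 after a RefSeq start (GRCh38.p14), 5′ to 3′ on the gene's strand, and capitals mark a match to a searched motif. SPIB is chr19:50418688-50418987 (plus strand), IRF8 chr16:85902580-85902879 (plus strand, inside the longer GENCODE gene), BCL6 chr3:187745419-187745718 (minus strand) and IRF4 chr6:391502-391801 (plus strand).
SPIB: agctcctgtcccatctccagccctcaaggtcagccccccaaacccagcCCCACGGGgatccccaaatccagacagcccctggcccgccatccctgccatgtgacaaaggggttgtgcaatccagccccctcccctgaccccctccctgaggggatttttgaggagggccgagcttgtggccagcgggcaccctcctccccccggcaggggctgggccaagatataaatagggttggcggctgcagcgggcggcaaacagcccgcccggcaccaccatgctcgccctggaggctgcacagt
IRF8: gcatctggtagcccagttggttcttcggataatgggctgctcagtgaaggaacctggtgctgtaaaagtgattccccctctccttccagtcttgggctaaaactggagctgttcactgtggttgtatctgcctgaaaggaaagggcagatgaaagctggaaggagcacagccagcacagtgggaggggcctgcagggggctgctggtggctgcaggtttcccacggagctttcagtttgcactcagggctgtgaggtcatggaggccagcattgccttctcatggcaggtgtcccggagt
BCL6: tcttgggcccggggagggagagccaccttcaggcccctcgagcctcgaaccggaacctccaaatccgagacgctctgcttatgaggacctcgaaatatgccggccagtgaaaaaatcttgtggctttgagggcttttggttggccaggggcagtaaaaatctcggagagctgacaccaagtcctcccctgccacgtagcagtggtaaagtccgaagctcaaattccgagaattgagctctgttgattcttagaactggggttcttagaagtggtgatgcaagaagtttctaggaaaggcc
IRF4: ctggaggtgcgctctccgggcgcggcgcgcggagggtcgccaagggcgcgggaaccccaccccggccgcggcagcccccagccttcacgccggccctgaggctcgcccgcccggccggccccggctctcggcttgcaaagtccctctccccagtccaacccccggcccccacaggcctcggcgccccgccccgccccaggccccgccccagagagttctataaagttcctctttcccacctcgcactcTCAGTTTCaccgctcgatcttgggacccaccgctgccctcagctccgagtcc
The motifs, searched on both strands, were the octamer ATGCAAAT (in 1.77% of all 35116 RefSeq windows of this length), the PU box GAGGAAGT (2.59%), an EBF core CCCNNGGG (19.1%) and an IRF core GAAANNGA (20.3%). The capitals mark an EBF core in SPIB, starting 202 bases before the start, and an IRF core, read on the minus strand, in IRF4, starting 2 bases before it. No marked matches overlap, and E-boxes (CANNTG, in 68.7% of windows) were counted but not marked. The shown windows of IRF8 and BCL6 held no match to these 4 motifs. No IRF8 window lay at the 5′ end of the GENCODE gene, at 85898803, so the sequence there was not searched. RefSeq windows were found for 8 of the 10 factors, 13 windows in all, but not for IKZF3 and POU2AF1, and the other windows with a match were those of IKZF1, where 1 held an EBF core and another an IRF core.

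The libraries held 2210291 to 3370952 counts on genes and 15847 to 17439 detected genes. Levels are given as CPM, counts per gene scaled to a common library size (TMM). The targeted gene, IGF2BP1, had 6.28, 14.8, 25.0 and 16.2 CPM in treated SH2 cells of sets 1 to 4, against 21.7, 30.5, 39.2 and 32.9 CPM in untreated SH2 cells. It was lower after doxycycline in every set, but its log2 fold change of -0.99 ± 0.43 (SE) did not pass after adjustment (edgeR, adjusted p = 0.983). It lay at 0 to 1.42 CPM in the 4 control libraries, so SH2 and control cells also differed in the gene under study before treatment. The treated SH2 library of set 4 stood apart from the other SH2 libraries (median correlation 0.882, against 0.91 to 0.947). Markers of the precursor B stage were present in all groups, with a summed level over 10 genes of 1038 to 2817 CPM in treated SH2 cells, 1071 to 2700 CPM in untreated SH2 cells, 1573 to 2071 CPM in treated control cells and 1811 to 2498 CPM in untreated control cells. T-cell markers stood out in the control cells of set 2, where CD3D, a subunit of the T-cell receptor complex, had 241 CPM with and 232 CPM without doxycycline, against 8.79 and 10.5 CPM in control cells of set 4 and 2.87 to 18.7 CPM in SH2 cells. The summed level of the 10 T-cell markers was 40.6 to 117 CPM in treated SH2 cells, 29.9 to 83.9 CPM in untreated SH2 cells, 17.6 to 651 CPM in treated control cells and 62.9 to 611 CPM in untreated control cells. Of these markers, 3 were at 0 throughout treated SH2 cells, 4 throughout untreated SH2 cells and none throughout either control group. The untreated control library of set 4 still had 21 counts of CD3E and 23 of CD5. No SH2 library had more than 1 count of CD3E, and all had 0 of CD5. Not all of these markers went this way. CD3G had 22.6 to 85.2 CPM in treated and 20.9 to 50.4 CPM in untreated SH2 cells. In treated and untreated control cells it had 193 and 206 CPM in set 2, but 3.06 and 18.8 CPM in set 4. CD7 averaged 7.32 and 8.80 CPM in treated and untreated SH2 cells, against 0.80 and 3.03 CPM in control cells. Markers of other lineages did not all move alike. The summed level of the 9 myeloid markers found was 12.2 to 24.7 CPM in treated SH2 cells, 16.2 to 21.1 CPM in untreated SH2 cells, 4.17 to 9.55 CPM in treated control cells and 6.17 to 6.51 CPM in untreated control cells. CD33, a receptor of myeloid cells, was higher in SH2 cells with (log2 3.71, edgeR adjusted p = 0.00979) and without doxycycline, where 60 counts stood against 2, 12.0-fold higher (95% interval of counting error 3.17 to 101). The control libraries had at most 1.15 CPM of it, so CD33 could be tested only through SH2 cells. PRF1, the perforin of cytotoxic cells, had 5.51 to 11.2 CPM in the 8 SH2 libraries and 0 counts in all 4 control libraries, at least 13.9-fold higher with and 13.3-fold higher without doxycycline when the control group is put at 3 counts. Of the myeloid markers, 2 were at 0 throughout treated and 3 throughout untreated SH2 cells, against 3 and 5 in treated and untreated control cells. CEBPA averaged 4.06 CPM in treated SH2 cells against 4.91 CPM in treated control cells. Without doxycycline it averaged 8.86 CPM in SH2 cells against 4.32 CPM in control cells. The summed level of the 5 NK markers found was 8.76 to 9.88 CPM in treated SH2 cells, 8.74 to 17.8 CPM in untreated SH2 cells, 6.50 to 7.05 CPM in treated control cells and 5.69 to 13.4 CPM in untreated control cells. Unlike PRF1, the NK marker NKG7 averaged less in SH2 cells. Its means were 1.49 and 4.95 CPM in treated and untreated SH2 cells, against 6.07 and 8.70 CPM in control cells. The summed levels of the 3 erythroid markers found overlapped between SH2 and control cells in both treatments. The part of these cells or transcripts in the results below was not tested.

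**Figure D1:**
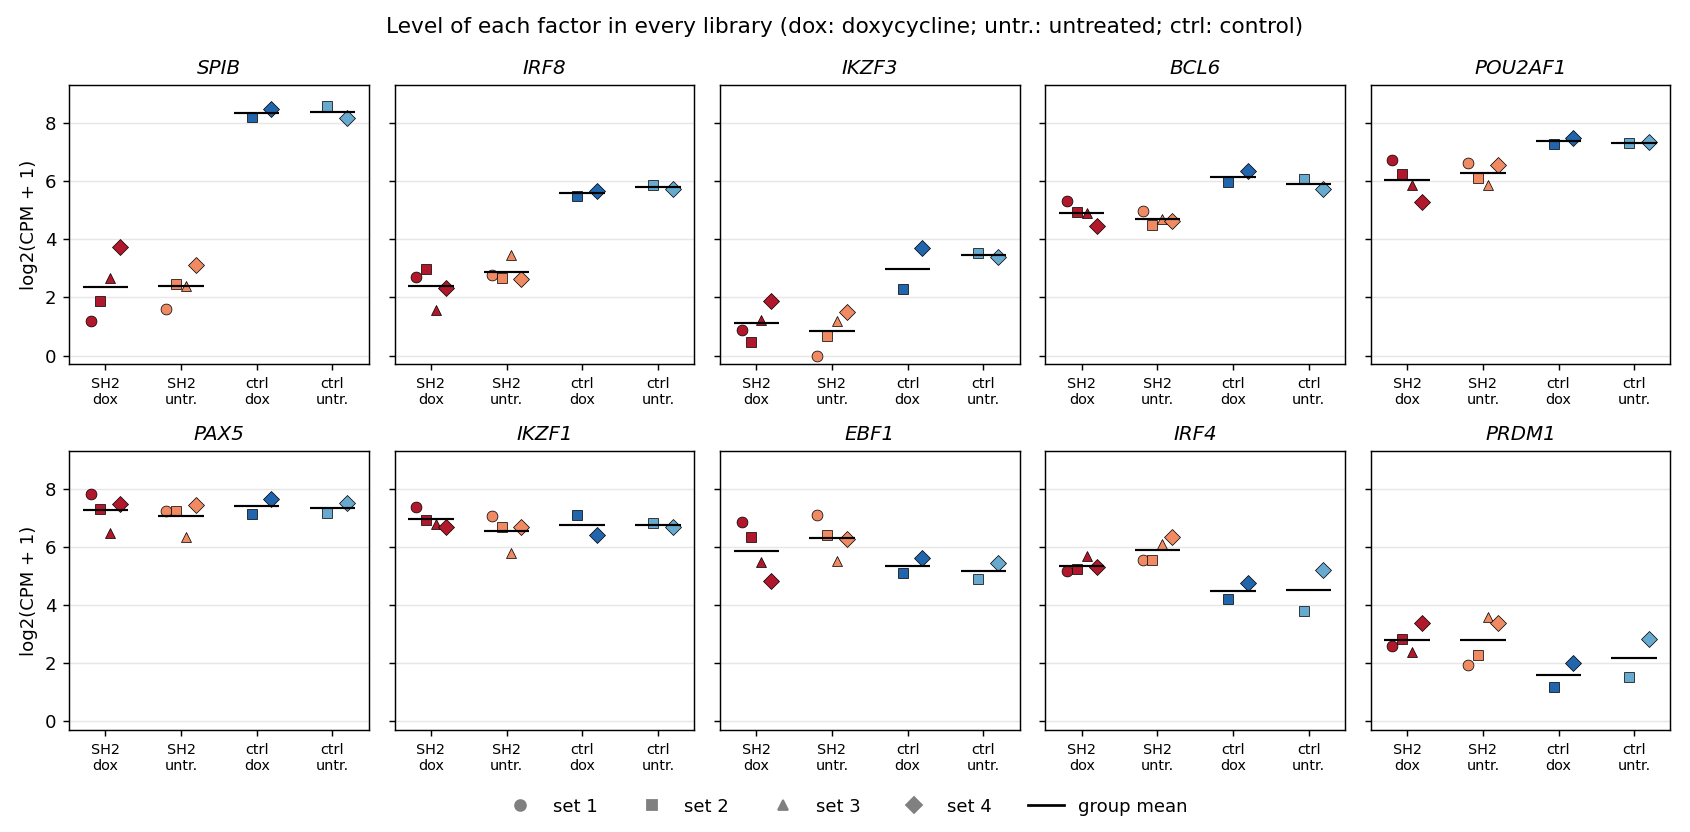
Level of each factor in every library, as log2(CPM + 1), in the 4 groups on the horizontal axis. Each point is a library, its shape gives the set, and the line is the group mean. SPIB, IRF8, IKZF3, BCL6 and POU2AF1 lay lower in all 8 SH2 libraries than in any of the 4 control libraries, and the other 5 factors overlapped.

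Each SH2 group was first compared with the control group of the same treatment. Without doxycycline, 4 of the 10 factors passed, all lower in SH2 cells, where 7.84% of all genes tested passed (2.94% higher and 4.9% lower). The 4 were SPIB, IRF8, BCL6 and IKZF3. IKZF3 entered the test through control cells alone, so it could be tested only because it was higher in them. With doxycycline, again 4 of 10 passed (SPIB, IRF8, BCL6 and POU2AF1), all lower, where 11.1% of all genes passed (4.6% higher and 6.48% lower). The levels of 5 factors did not overlap between the 8 SH2 and the 4 control libraries, as was so for 15.6% of all genes. The median log2 fold change of the 10 factors was -0.61 without and -0.67 with doxycycline, against 0.03 and 0.04 over all genes. The factors were chosen with earlier results of these data known, so these shares and medians only describe them.

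Of the factors of the mature B cell, SPIB, an ETS factor close to PU.1, showed the largest fold among the 10 (ENSG00000269404, chromosome 19, 50418938 to 50431313 in GENCODE v29 on GRCh38). It had 1.26, 2.66, 5.27 and 12.1 CPM in treated SH2 cells of sets 1 to 4, 2.05, 4.45, 4.21 and 7.54 CPM in untreated SH2 cells, 291 and 357 CPM in treated control cells of sets 2 and 4, and 382.5 and 285.6 CPM in untreated control cells. Every SH2 library lay far below every control library, and the SH2 values rest on 3 to 36 counts, against 790 to 934 in control cells. The log2 fold change of SPIB was -6.16 ± 0.57 (SE) without doxycycline, 71.2-fold lower in SH2 cells (edgeR, adjusted p = 2.42e-05), and -5.88 ± 0.57 with it, 59.0-fold lower (adjusted p = 2.45e-05). Within set 4 the difference was -5.07 without and -4.77 with doxycycline on the log2(CPM + 1) scale. In set 2, whose control cells had more T-cell transcripts than those of set 4, it was -6.14 and -6.32. AC020909.1, which overlaps SPIB on the same strand, had 0 counts in all 12 libraries. Reads on sequence that both genes share can be set aside as ambiguous in the counting, so this does not show that AC020909.1 is silent.

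IRF8, an interferon regulatory factor that acts with PU.1 or SPIB on composite sites, was lower in SH2 cells too (ENSG00000140968, chromosome 16, 85898803 to 85922609). Its levels were 5.45, 6.83, 1.98 and 4.04 CPM in treated SH2 cells, 5.74, 5.34, 10.0 and 5.13 CPM in untreated SH2 cells, 44.2 and 49.7 CPM in treated control cells, and 57.4 and 52.4 CPM in untreated control cells. The groups were well apart, with the untreated SH2 cells of set 3 the highest of the SH2 libraries. IRF8 was 8.32-fold lower in SH2 cells without doxycycline (log2 -3.06 ± 0.39, edgeR adjusted p = 0.000239) and 10.3-fold lower with it (-3.36 ± 0.40, adjusted p = 0.000139). The set 4 differences, -3.12 without and -3.33 with doxycycline on the log2(CPM + 1) scale, stood beside -3.20 and -2.53 in set 2. SPIB and IRF8 passed under every alternative and with any library left out.

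BCL6, the repressor that maintains the germinal centre state, had 38.5, 29.2, 28.99 and 20.9 CPM in treated SH2 cells, 30.3, 21.6, 24.9 and 23.5 CPM in untreated SH2 cells, 61.9 and 79.5 CPM in treated control cells, and 66.0 and 51.3 CPM in untreated control cells. No SH2 library reached the lowest control library. BCL6 (ENSG00000113916, chromosome 3, 187721377 to 187745727) was lower in SH2 cells by a log2 fold change of -1.22 ± 0.29 without doxycycline (edgeR, adjusted p = 0.0171) and -1.26 ± 0.28 with it (adjusted p = 0.0107). The call without doxycycline was lost when the untreated control library of set 2 (adjusted p = 0.225) or of set 4 (adjusted p = 0.0541) was left out, and the call with it when the treated control library of set 4 was (adjusted p = 0.128) or when the compared groups were fitted alone (adjusted p = 0.0507). Its 3′ end overlaps AC072022.1 on the opposite strand, and the strand setting of the counting is not given in the sources used here, so reads of the pair cannot be told apart.

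POU2AF1, the coactivator that Oct factors recruit at octamer sites, had 103.5, 74.8, 57.0 and 37.7 CPM in treated SH2 cells, 97.5, 67.9, 56.7 and 93.5 CPM in untreated SH2 cells, 152 and 176.5 CPM in treated control cells, and 156 and 161 CPM in untreated control cells. All SH2 libraries lay below all control libraries, and the treated SH2 library of set 4 lay lowest. POU2AF1 (ENSG00000110777, chromosome 11, 111352252 to 111455630) was lower in treated SH2 cells by -1.27 ± 0.34 on the log2 scale (edgeR, adjusted p = 0.0288). Without doxycycline the value was -1.004 ± 0.35 and did not pass (adjusted p = 0.1), but it passed with the set as a replicate block (-1.10, adjusted p = 0.0292), with the compared groups fitted alone (-1.01, adjusted p = 0.0445) and with set 4 of the SH2 cells left out (-1.10, adjusted p = 0.0397). The treated call was lost without the treated control library of set 2 (adjusted p = 0.0906) or of set 4 (0.183), without the treated SH2 library of set 2 (0.0557) or of set 3 (0.073), and with the compared groups fitted alone (0.0844).

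The Ikaros family was represented by IKZF3 (Aiolos) and IKZF1 (Ikaros). IKZF3 (ENSG00000161405, chromosome 17, 39757715 to 39864188) had 2, 1, 4 and 8 counts in treated SH2 cells, 0, 2, 4 and 6 counts in untreated SH2 cells, 12 and 31 counts in treated control cells, and 22 and 26 counts in untreated control cells. In CPM that is 0.38 to 2.70 and 0 to 1.81 in the treated and untreated SH2 libraries, against 3.85 to 11.8 and 9.40 to 10.4 in the treated and untreated control libraries. Only the 4 control libraries exceeded the 3.64 CPM that the filter on low counts asked for, so a gene of this kind could be tested only because it was higher in control cells. IKZF3 was lower in untreated SH2 cells by -3.31 ± 0.80 on the log2 scale (edgeR, adjusted p = 0.0194), and this call was lost without the untreated control library of set 2 (adjusted p = 0.117) or of set 4 (0.077), or without the untreated SH2 library of set 2 (0.0633). In treated cells the value was -2.51 ± 0.79 and did not pass (adjusted p = 0.0553), but it passed with set 4 of the treated SH2 libraries left out (-3.11, adjusted p = 0.0283), by the Wald test of DESeq2 (-2.54, adjusted p = 0.0305) and with no filter on low counts (-2.52, adjusted p = 0.0103).

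IKZF1 (ENSG00000185811, chromosome 7, 50304068 to 50405101) had 166, 122, 111 and 102 CPM in treated SH2 cells, 131, 101, 54.4 and 101 CPM in untreated SH2 cells, 136.5 and 84.8 CPM in treated control cells, and 112 and 102 CPM in untreated control cells. Its SH2 and control levels overlapped in both treatments. The log2 fold change between SH2 and control cells was -0.15 ± 0.34 without doxycycline (adjusted p = 0.879) and 0.18 ± 0.34 with it (adjusted p = 0.798).

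PAX5, the factor of B-cell commitment, had 224, 157, 88.3 and 175.5 CPM in treated SH2 cells, 149, 149, 80.3 and 172 CPM in untreated SH2 cells, 141 and 201 CPM in treated control cells, and 142 and 179 CPM in untreated control cells. Set 3 was the lowest of the SH2 sets in both treatments, and the ranges of the SH2 and control cells overlapped. PAX5 (ENSG00000196092, chromosome 9, 36833275 to 37034185) differed by -0.22 ± 0.37 without doxycycline (adjusted p = 0.818) and by -0.08 ± 0.37 with it (adjusted p = 0.921), on the log2 scale.

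EBF1, which acts upstream of and together with PAX5, varied widely among the SH2 libraries. It had 115, 80.1, 43.2 and 27.3 CPM in treated SH2 cells, 135, 84.2, 44.7 and 75.7 CPM in untreated SH2 cells, 33.3 and 47.8 CPM in treated control cells, and 28.9 and 43.0 CPM in untreated control cells. The untreated SH2 libraries all lay above both untreated control libraries, while the treated SH2 library of set 4 lay below all 4 control libraries. EBF1 (ENSG00000164330, chromosome 5, 158695916 to 159099761) had a log2 fold change of 1.23 ± 0.54 without doxycycline (adjusted p = 0.217) and 0.71 ± 0.53 with it (adjusted p = 0.449), and neither passed. With no filter on low counts the untreated value was 1.26 and passed (adjusted p = 0.0284).

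The factors of the plasma cell step had positive values in both comparisons. IRF4 (ENSG00000137265, chromosome 6, 391739 to 411447), which promotes plasma cell formation and light chain rearrangement in precursors, had 35.2, 37.2, 50.1 and 39.1 CPM in treated SH2 cells, 45.9, 46.0, 67.04 and 79.4 CPM in untreated SH2 cells, 17.6 and 26.0 CPM in treated control cells, and 12.8 and 36.1 CPM in untreated control cells. SH2 cells lay above control cells within each treatment, but the treated SH2 cells of set 1, at 35.2 CPM, lay just under the untreated control cells of set 4. The log2 fold change of IRF4 was 1.27 ± 0.41 without doxycycline and did not pass (edgeR, adjusted p = 0.0769), nor did 0.89 ± 0.40 with it (adjusted p = 0.185). The untreated value passed with the set as a replicate block (1.34, adjusted p = 0.0135), by DESeq2 (1.27, adjusted p = 0.0294), by limma on the deposited values (1.43, adjusted p = 0.0353), with no filter on low counts (1.29, adjusted p = 0.0329) and without the untreated control library of set 4 (2.22, adjusted p = 0.027).

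PRDM1, the repressor that ends the B-cell programme, was near the lower limit of what was tested. It had 5.03, 6.07, 4.28 and 9.43 CPM in treated SH2 cells, 2.87, 3.86, 11.0 and 9.35 CPM in untreated SH2 cells, 1.28 and 3.06 CPM in treated control cells, and 1.90 and 6.15 CPM in untreated control cells, on 4 to 34 counts per library. The untreated groups overlapped, and the treated SH2 libraries lay above both treated control libraries. Of the control libraries 1, and of the SH2 libraries 7, exceeded 3.64 CPM, so PRDM1 too could be tested only through the SH2 cells. Its log2 fold change was 0.72 ± 0.68 without doxycycline (adjusted p = 0.635) and 1.52 ± 0.73 with it (adjusted p = 0.214). The gene (ENSG00000057657, chromosome 6, 106086320 to 106109939) ends within ATG5 on the opposite strand, with the same limit as for BCL6.

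**Figure D2:**
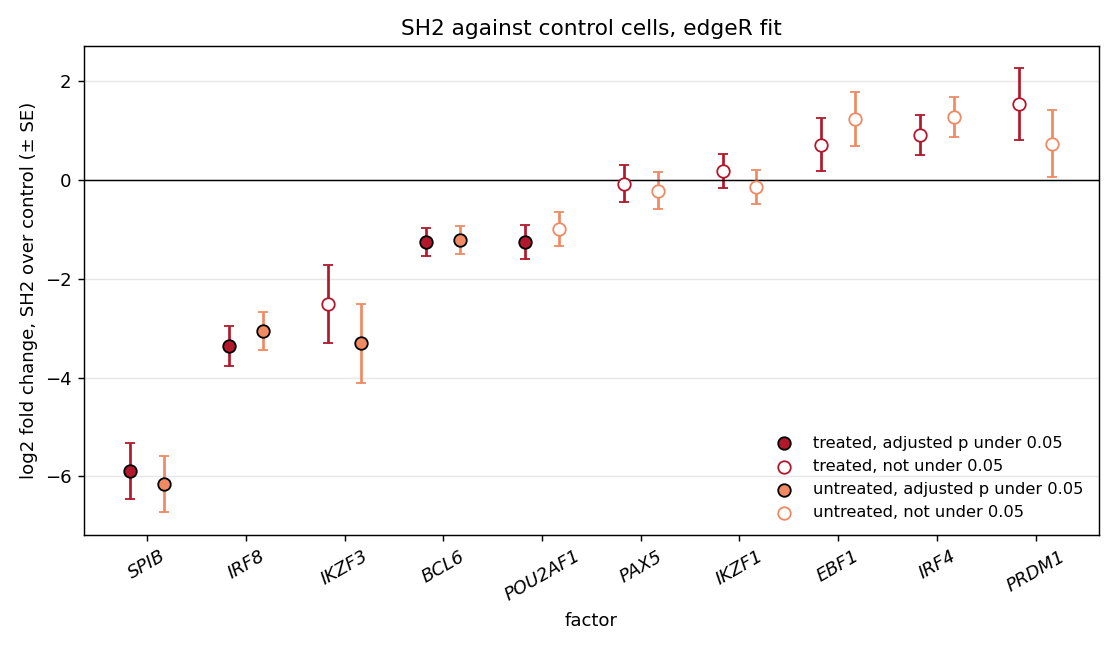
Log2 fold change of SH2 over control cells for each factor on the horizontal axis, with its standard error, in treated (dark) and untreated (light) cells; filled points had an adjusted p under 0.05. SPIB, at -5.88 and -6.16, and IRF8, at -3.36 and -3.06, lay lowest with filled points in both treatments, and PAX5 and IKZF1 lay near 0.

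The second question was what doxycycline did to the factors, in SH2 cells, where it turns on the shRNA against IGF2BP1, and in control cells, which lack a stated shRNA. None of the 10 factors passed in SH2 cells, where 0.0167% of all genes did (2 genes). By DESeq2 the count of factors was also 0, and 0 factors had an unadjusted p under 0.05 by edgeR, against 584 of the 11968 genes. These tests held no term for the set. With the set as a replicate block, 6 genes passed by edgeR, none of them a factor, and 1098 genes had an unadjusted p under 0.05. In control cells 0 factors and 0% of all genes passed, and for the difference between the doxycycline responses of SH2 and control cells it was again 0 factors and 0% of genes. By edgeR, 82 and 116 genes had an unadjusted p under 0.05 in these comparisons and DESeq2 called 0 and 3 genes, of which 0 were factors; no factor had an unadjusted p under 0.05 by edgeR. The median log2 fold change of the 10 factors with doxycycline was 0.05 in SH2 cells, against 0.03 over all genes.

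IRF4 had the smallest p of the 10 in SH2 cells, with a log2 fold change of -0.56 ± 0.31 (edgeR, adjusted p = 0.983), and its level was lower after doxycycline in 4 of 4 sets, by -1.004 to -0.30 on the log2(CPM + 1) scale. EBF1 was lower in 4 of 4 sets as well, by -1.44 to -0.05, with the largest difference in set 4, and its fitted value was -0.36 ± 0.42 (adjusted p = 0.986), or -0.15 without both SH2 libraries of set 4. PAX5 was higher in 4 of 4 sets, by 0.03 to 0.58, and IKZF1 in 4 of 4, by 0.02 to 1.01, with fitted values of 0.23 ± 0.30 (adjusted p = 0.986) and 0.37 ± 0.28 (adjusted p = 0.983). These sets agree in sign, and none of the 4 genes passed.

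The other factors did not move alike over the sets, or rested on few counts. SPIB had a value of 0.23 ± 0.53 in SH2 cells, IRF8 -0.53 ± 0.37, IKZF3 0.46 ± 0.79, BCL6 0.23 ± 0.25, POU2AF1 -0.21 ± 0.29 and PRDM1 -0.13 ± 0.52, all with adjusted p of 0.983 to 0.999. POU2AF1 lay below its untreated level in set 4 alone, and without both SH2 libraries of set 4 its value was 0.08. In control cells, with 2 libraries per group, the fitted values ran from -0.93 ± 0.82 for PRDM1 to 0.27 ± 0.34 for BCL6.

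**Figure D3:**
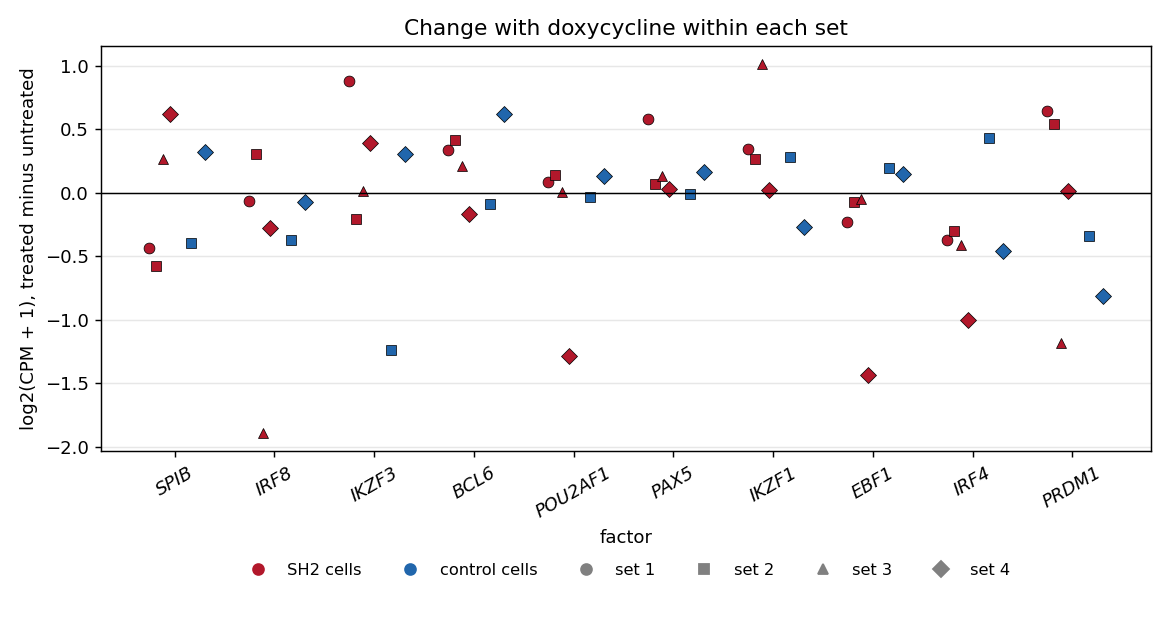
Difference in log2(CPM + 1) between treated and untreated cells of the same set for each factor, in SH2 cells (left of each pair, red) and control cells (right, blue); shapes give the set. EBF1 and IRF4 lay below 0 and PAX5 and IKZF1 above 0 in all 4 SH2 sets, and the EBF1 value of set 4, -1.44, and the IRF8 value of set 3 lay far from the others.

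Across the 8 SH2 libraries some factors varied together. EBF1 and POU2AF1 correlated at 0.937 (Pearson's r of log2 CPM, 8 libraries, which share sets and depth), PAX5 and IKZF1 at 0.725, and IKZF1 and IRF4 at -0.656. Of 8710 genes compared over these 8 libraries, the top correlations with each factor follow as Pearson's r, with Spearman's rho after it. EBF1 was most like MYADM (0.995, rho 0.905) and HYI (0.992, rho 0.929), and POU2AF1 was most like TCEAL8 (0.991, rho 0.976) and PSD3 (0.989, rho 0.929). PAX5 was most like IER3IP1 (0.956, rho 0.81) and INTS1 (0.955, rho 0.881), and IKZF1 was most like C8orf82 (0.959, rho 0.738) and LRRC28 (0.955, rho 0.905). IRF4 was most like DNAJC3 (0.965, rho 0.929), a chaperone of the endoplasmic reticulum, and CUL5 (0.934, rho 0.881), and BCL6 was most like DDHD1 (0.975, rho 0.976) and RAB11B-AS1 (0.965, rho 0.905).

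Genes that these factors are known to regulate were then read in the comparison of untreated SH2 with untreated control cells, where 7.84% of all genes passed (2.94% higher and 4.9% lower). Beside them stand the counts in treated cells, where 11.1% passed (4.6% higher and 6.48% lower). The lists were chosen with earlier results of these data known, so their counts and medians are descriptions and not independent tests. Some listed genes exceeded the filter's 3.64 CPM only in SH2 or only in control cells. They could be tested only because they were higher there, which limits their p-values and the counts of genes that passed. Of the genes known as targets of octamer factors, POU2AF1 or SPIB, 6 of 9 tested were lower in SH2 cells and 0 higher, with a median log2 fold change of -3.66, against 0.03 over all genes. MS4A1 (CD20) had 0, 0.38, 1.32 and 14.5 CPM in treated SH2 cells, 0, 0.89, 2.59 and 1.21 CPM in untreated SH2 cells, 199 and 278 CPM in treated control cells, and 250 and 259 CPM in untreated control cells. The log2 fold change of MS4A1 without doxycycline was -7.66 (edgeR, adjusted p = 0.000369). CR2, the complement receptor CD21, had 2 counts over the untreated SH2 libraries, against 769 in the untreated control libraries, a level 964-fold lower in SH2 cells (95% interval of counting error 266 to 7970). The untreated control libraries had 266 CPM of CR2 in set 2 and 75.2 CPM in set 4, and without set 2 the level was 459-fold lower and without set 4 1630-fold lower. FCER2, the IgE receptor CD23, had 1 count against 141, 353-fold lower (62.4 to 14100), and CD40, the receptor for T-cell help, was lower by -3.09 on the log2 scale (adjusted p = 7.79e-05). In treated cells 7 of 9 were lower and 0 higher (median -2.98), where 6.48% of all genes were lower. MS4A1 exceeded the filter in SH2 cells only in the treated library of set 4, and CR2 and FCER2 in no SH2 library.

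Of the targets of PAX5 and EBF1, whose own levels did not pass the test, 5 of 21 tested were lower in untreated SH2 cells and 0 higher, with a median of -0.86. CIITA, the master activator of MHC class II genes, had 15.9, 11.4, 8.90 and 12.1 CPM in treated SH2 cells, 17.2, 18.1, 7.77 and 17.2 CPM in untreated SH2 cells, 131 and 98.2 CPM in treated control cells, and 143 and 133 CPM in untreated control cells. It was lower in untreated SH2 cells by -3.19 on the log2 scale (adjusted p = 4.19e-05). The tetraspanin CD37 (-3.36, adjusted p = 0.000142), the coreceptor CD72 (-1.81, adjusted p = 0.0205) and the inhibitory receptor CD22 (-1.75, adjusted p = 0.0307) were lower as well. By DESeq2, 7 of 21 were lower in untreated SH2 cells and 0 higher. In treated cells 6 of 21 were lower and 0 higher by edgeR (median -0.37), among them LCK, a kinase of T cells and some B cells, which in control cells was at 141 and 108 CPM in set 2 and at 20.6 and 28.9 CPM in set 4, as the T-cell markers were; their part in that result was not tested.

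Germinal centre genes, the programme that BCL6 maintains, counted 5 lower and 0 higher of 10 tested in untreated SH2 cells, with a median of -1.14. BCL7A, a subunit of a chromatin remodelling complex, averaged 56.6 ± 9.99 CPM in treated SH2 cells and 42.4 ± 9.01 CPM in untreated SH2 cells (SD, n = 4 each), and 97.4 ± 17.2 CPM in treated control cells and 94.8 ± 3.92 CPM in untreated control cells (SD, n = 2 each). BCL7A was lower in untreated SH2 cells by -1.16 on the log2 scale (edgeR, adjusted p = 0.0155), and all SH2 libraries lay below all control libraries. A4GALT, which makes the CD77 antigen, had 0 counts in the untreated SH2 libraries, against 170 in the untreated control libraries, at least 142-fold lower when the SH2 group is put at 3 counts. SERPINA9 had 0 against 34 counts, at least 28.4-fold lower, and RGS13, a regulator of chemokine signals, had 2 against 72, 90.2-fold lower (24.1 to 759). In treated cells 4 of 10 were lower and 0 higher (median -1.60), where 6.48% of all genes were lower. A4GALT, SERPINA9 and RGS13 could be tested only through control cells.

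Genes of the plasma cell programme, the side of IRF4 and PRDM1, were split. In untreated SH2 cells 1 of 11 was higher and 2 lower (median 0.98), and in treated SH2 cells 3 were higher and 2 lower (median 1.004). DESeq2 called 3 higher and 2 lower without doxycycline, and 4 higher and 2 lower with it. SDC1, the plasma cell surface marker CD138, had 14.2, 22.0, 20.1 and 38.1 CPM in treated SH2 cells, 10.2, 15.4, 15.2 and 26.9 CPM in untreated SH2 cells, 2.88 and 0 CPM in treated control cells, and 1.90 and 0 CPM in untreated control cells. SDC1 was higher in untreated SH2 cells by 4.25 on the log2 scale (adjusted p = 0.0189), while SLAMF7 (-6.47, adjusted p = 4.67e-05) and CD27, a memory and plasma cell receptor (-2.44, adjusted p = 0.00463), were lower. TNFRSF17, the survival receptor BCMA, did not pass (3.29, adjusted p = 0.0775). SDC1 and TNFRSF17 could be tested only through SH2 cells, and SLAMF7 only through control cells.

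Among the 28 other regulators of the B lineage, most did not pass: 2 were higher and 2 lower in untreated SH2 cells (median 0.22; DESeq2 called 3 and 2), and 2 higher and 3 lower in treated SH2 cells (median 0.01). FOXO1, which works with EBF1 in precursors, was higher in untreated SH2 cells by 1.76 (adjusted p = 0.0459). The repressor BHLHE41 had 172 counts over the untreated SH2 libraries, against 2 in the untreated control libraries, 34.3-fold higher (9.36 to 286). AFF3, a nuclear factor of the lymphoid lineage, was lower by -4.92 (adjusted p = 0.000946), and the ETS repressor ETV6 by -1.40 (adjusted p = 0.0278). AFF3 could be tested only through control cells, and BHLHE41 only through SH2 cells. Of the 9 tested genes that mark precursor B cells, 1 was lower and 0 higher without doxycycline (median 0.50) and 0 passed with it (median 0.83). By edgeR, 2 of these had an unadjusted p under 0.05 in treated cells, and DESeq2 called 2 lower there.

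**Figure D4:**
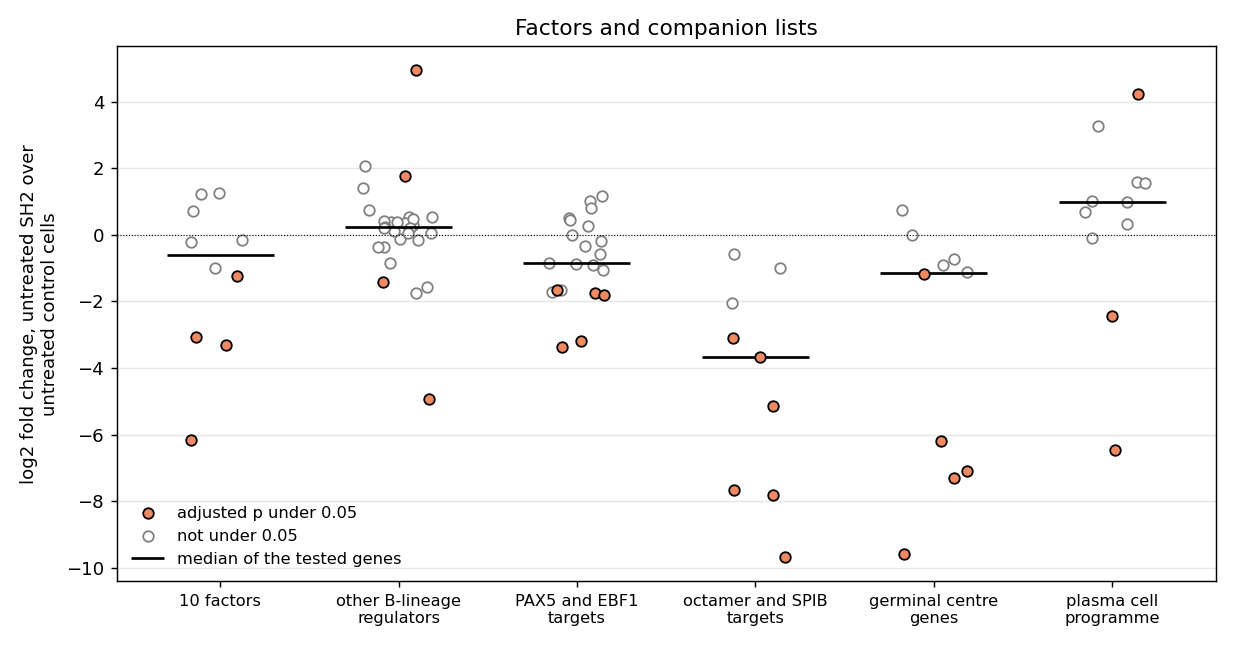
Log2 fold change of untreated SH2 over untreated control cells for the 10 factors and for 5 lists of genes on the horizontal axis; each point is a gene, filled where its adjusted p was under 0.05, and lines are medians of the tested genes. The fitted values of genes with 0 counts in a group depend on the prior count; the median of the octamer and SPIB targets lay at -3.66 and that of the other regulators at 0.22.

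With doxycycline in SH2 cells, 0 genes passed in any of these 5 lists or among the precursor markers by edgeR, nor any by DESeq2. At an unadjusted p under 0.05, which 4.88% of all genes had, there were 1 of 28 other regulators, 3 of 21 PAX5 and EBF1 targets and 1 of 9 precursor markers, and 0 in the remaining 3 lists. BANK1, a scaffold of B-cell receptor signalling, had the smallest p of the PAX5 and EBF1 targets, with a log2 fold change of 2.60 (edgeR, adjusted p = 0.983). It had 0.84, 2.28, 12.5 and 18.5 CPM in treated SH2 cells, 0.41, 0.30, 3.56 and 1.21 CPM in untreated SH2 cells, 9.93 and 8.02 CPM in treated control cells, and 3.80 and 5.42 CPM in untreated control cells. BANK1 was higher after doxycycline in all 4 SH2 sets and in both control sets. CD24, a surface protein of immature B cells, had a value of -0.82 (edgeR, adjusted p = 0.983), and BCL11A, a zinc finger factor of early B cells, one of -0.65 (edgeR, adjusted p = 0.983).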

How the data were processed

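Libraries were made, per the labels' protocols, with a QuantSeq kit, which captures transcripts near their poly(A) tail. The authors deposited counts of reads per gene; the submitters' processing notes name FastQC, STAR, HTSeq, DESeq2 and hg38 (GRCh38), and versions and the strand setting are not stated there. HTSeq's 5 summary lines stayed out of all sums and tests. Per library they took 42.2% to 63.8% of reads for multiple alignment, 3.25% to 7.73% for no gene and 1.11% to 1.62% for ambiguity. The signal of the authors' normalized table (26231 genes) equalled these counts times a constant in each library (100% whole, tolerance 0.01), and the reads recovered from it gave 2, 0, 0, 938 and 1326 called genes in the 5 comparisons, as the counts did.

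One edgeR model (4.0.16, R 4.3.3) was fitted to the 12 libraries with a term for each group, after filterByExpr (minimum count 10) and TMM, and tested by quasi-likelihood. P-values were adjusted by Benjamini-Hochberg over 11968 genes, and calls made under 0.05; edgeR's biological coefficient of variation came to 0.376. SE is that of the log2 fold change, and differences within a set are in log2(CPM + 1). Each replicate was a separate sort and treatment by the design text, and no pair agreed within sampling noise (chi-square per degree of freedom within groups 8.64 to 50.4). The labels number the sets. Treated and untreated SH2 libraries of a set deviated from their group means together (r = 0.182 to 0.65, minimum 0.1). The treated library of set 2 was, however, closer to the untreated library of set 1 (r = 0.267) than to its own (r = 0.182). The set numbers were treated as pairing the samples in the differences within a set and in the refit with the set as a block. The main model held no term for the set, so its p-values do not use the pairing. Intervals (exact, 95%) and floors of 3 counts over a group hold counting error alone, because the reads have no molecular identifiers.

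The 10 factors and the gene lists were chosen with earlier results of these data known. Named beside the factors were IGF2BP1, the 4 genes of each list with the smallest p in untreated SH2 against control cells and the 2 with the smallest p for doxycycline in SH2 cells, markers of other cells of at least 10 CPM, and the 2 genes most like each factor whose log2 CPM averaged at least 3. Some of these are counted only, some genes that the rule names are not reported here, and LCK was added after its values were seen. The model was refitted with the size factors of DESeq2, without the filter, with the set as a block, on the compared groups alone, without each library and without both SH2 libraries of set 4, and replaced by the Wald test of DESeq2 (1.42.0) and by limma-trend (3.58.1) on the deposited values plus 1. Folds of companion genes with 0 to 3 counts in SH2 cells were also taken without each control library, a choice made after seeing the data. CD33 and PRF1 were also named after their values were seen. Tests were tried on simulated counts.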

Additional observations from a re-analysis of the deposited data

Results flagged for a closer look

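IRF8 in the untreated SH2 library of set 3, at 10.0 CPM, lay far from the other untreated SH2 libraries: its gap to the nearest of them was 0.876 of the group's range (Dixon's test). Chance marks about 1 in 20 groups in this way. The test was run on each of the 10 factors in both SH2 groups, and this was the only value marked, about as many as chance gives. Set 3 also gave the largest doxycycline difference of IRF8.

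The doxycycline response of EBF1 lay below 0 in 4 of 4 SH2 sets and above 0 in 2 of 2 control sets. The difference between the responses was -0.52 ± 0.73 on the log2 scale, and its test by edgeR did not pass (adjusted p = 1).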

How the results depend on the processing

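SPIB and IRF8 passed with the same sign under every alternative in both comparisons of SH2 with control cells. Without doxycycline 4 factors passed, and leaving out a library gave 2 to 4 (2 without the untreated control library of set 2). With doxycycline 4 passed, leaving out a library gave 2 to 5 (2 without the treated control library of set 4), and the compared groups fitted alone gave 2. With the set as a replicate block 6 factors passed without and 4 with doxycycline; beyond POU2AF1 and IRF4 it changed no call. Over all genes, no filter gave 47 calls for doxycycline in SH2 cells, the block 6, DESeq2 17 and the compared groups alone 0, against 2. For SH2 against control cells no filter gave 1449 calls without doxycycline and the block 1505, against 938. With doxycycline the block gave 2171 and the compared groups alone 789, against 1326. Without the untreated control library of set 2 or of set 4 the counts were 343 and 490, and without the treated control library of set 2 or of set 4 they were 737 and 645. For doxycycline in control cells and for the difference between the responses, no filter gave 3 calls each, the block 0 and 1, and DESeq2 0 and 3, against 0 and 0.

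Signs turned only for values that did not pass. For doxycycline in SH2 cells, limma gave -0.073 for SPIB and 0.023 for PRDM1, and leaving out both SH2 libraries of set 4 gave -0.20 for SPIB and 0.082 for POU2AF1. Limma gave 0 for IKZF1 in control cells. For the difference between responses, limma gave -0.028 for SPIB, and leaving out set 4 gave -0.16 for SPIB, 0.031 for POU2AF1 and 0.065 for BCL6. The block gave 0.061 for PAX5 in treated SH2 against control cells. The causes were not tested.

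Leaving out each library turned the sign of these values. In treated against untreated SH2 cells the ranges were -0.15 to 0.97 for IKZF3, -0.41 to 0.21 for PRDM1 and -0.55 to 0.58 for SPIB. In control cells they were -0.11 to 0.49 for EBF1, -0.34 to 0.36 for IKZF1, -1.35 to 0.26 for IKZF3, -0.73 to 0.77 for IRF4, -0.18 to 0.32 for PAX5, -0.049 to 0.16 for POU2AF1, -1.64 to 0.17 for PRDM1 and -0.23 to 0.18 for SPIB. For the difference between responses they were -0.24 to 0.14 for BCL6, -1.33 to 0.17 for IRF4, -0.56 to 0.002 for IRF8, -0.10 to 0.41 for PAX5, -0.31 to 1.504 for PRDM1 and -0.51 to 0.62 for SPIB. In SH2 against control cells they were -0.14 to 0.56 for IKZF1 and -0.32 to 0.18 for PAX5 with doxycycline, and -0.32 to 0.022 for IKZF1 without. With 2 control libraries per treatment, leaving out a library assumes that the lone library varies like the other groups. Depth limits IKZF3, PRDM1 and, in SH2 cells, SPIB and IRF8, which rest on 0 to 36 counts per library there.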
